A study of Mus musculus with 6 samples.

Results

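The sebaceous gland lipid genes described here are Mc5r, Acsbg1, Scd3, Elovl3, Far2, Awat1, Awat2, Dgat2l6 and Soat1. They were taken by gene symbol and are 9 of the 55291 genes in the deposited tables. All 9 passed the filter on low counts that left 19971 genes for testing. Whole dorsal skin was taken, after shaving, from 3 mice with the tight skin (TSK) mutation and 3 wild-type (WT) littermates of the C57BL/6 strain, untreated, and each mouse gave 1 RNA library. The TSK mutation duplicates part of Fbn1, which encodes fibrillin 1, a protein of microfibrils. TSK mice were heterozygous, and the line was kept by backcrossing. The mutant allele is present in every cell of a TSK mouse, so the comparison is not limited to the sebaceous gland.

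The labels give an age of 6 to 8 weeks. They list the mice as female, whereas the methods of the study describe the skin donors as male. Every library held the Y-linked gene Ddx3y at 56.7 to 72.8 CPM (counts scaled to 1000000 per library) and the X inactivation transcript Xist at 2.57 to 4.58 CPM. The Y-linked gene Eif2s3y was at 27.0 to 39.0 CPM. Y-linked transcripts in every library go with the male donors of the methods and not with the female label. Library totals ran from 17561453 to 19219814 counts. Fbn1, the mutated gene, had 267, 289 and 262 CPM in the WT libraries 1 to 3. In the TSK libraries 1 to 3 it had 1538, 2284 and 2007 CPM, all above WT, and its adjusted p by edgeR was 0.00327 (log2 fold change 2.54, SE 0.22).

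Sebaceous glands open into the hair follicle and release sebum when their cells, the sebocytes, fill with lipid and break down. Sebum is made of triglycerides, wax esters and sterol esters, and it coats hair and skin surface. Fatty acids are activated to acyl-CoA, lengthened and desaturated, then either reduced to fatty alcohols and joined to another fatty acid as a wax ester, or joined to cholesterol or glycerol. Melanocortin hormones and androgens drive the gland. In whole skin, fewer sebocytes and less RNA per sebocyte cannot be told apart.

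The promoters of 3 genes that varied widely between WT mice are shown first, so that the letters around their starts can be seen beside the values. RefSeq promoter windows (GRCm38.p6, 250 bases before to 50 bases after the start) matched 7 of the 9 genes, with 8 windows. Mc5r and Elovl3 had no entry. The windows below belong to the 3 genes, among those with a window, whose level fell furthest from WT 1 to WT 2. Capitals mark matches on either strand to any of the motifs searched, which were the nuclear receptor hexamer AGGTCA, the sterol response element TCACNCCAC, the core promoter motif TATAAA, the CCAAT box and the GC box GGGCGG.
Awat1, chrX:100571997-100572296, plus strand: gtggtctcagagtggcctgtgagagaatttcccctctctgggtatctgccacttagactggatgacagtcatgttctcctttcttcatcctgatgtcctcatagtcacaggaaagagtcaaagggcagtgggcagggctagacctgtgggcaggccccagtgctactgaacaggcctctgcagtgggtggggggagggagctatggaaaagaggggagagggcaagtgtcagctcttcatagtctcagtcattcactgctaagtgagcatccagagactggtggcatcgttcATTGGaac
Far2, chr6:148047166-148047465, plus strand: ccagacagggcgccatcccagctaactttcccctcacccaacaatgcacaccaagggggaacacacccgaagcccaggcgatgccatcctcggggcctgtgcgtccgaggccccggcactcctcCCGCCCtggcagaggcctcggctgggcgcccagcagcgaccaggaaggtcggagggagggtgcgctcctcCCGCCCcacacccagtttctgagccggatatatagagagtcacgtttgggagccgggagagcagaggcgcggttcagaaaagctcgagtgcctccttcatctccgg
Scd3, chr19:44203038-44203337, plus strand: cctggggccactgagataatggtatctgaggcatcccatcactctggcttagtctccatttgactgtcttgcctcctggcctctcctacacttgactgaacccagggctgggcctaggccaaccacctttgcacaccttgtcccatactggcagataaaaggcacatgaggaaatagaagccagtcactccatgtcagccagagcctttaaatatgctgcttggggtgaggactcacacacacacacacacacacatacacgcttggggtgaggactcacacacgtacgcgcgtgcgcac
The Far2 window held the GC box letters at 2 places on the minus strand, starting 126 and 56 bases before the start site. The Awat1 window held the CCAAT letters once, on the minus strand downstream of the start, and the Scd3 window held none of the 5 motifs. CCAAT was found in 5 of the 8 windows (Acsbg1, Awat1, Soat1 and both windows of Awat2) against 37.41% of all 32851 windows. GGGCGG was found in 3 of the 8 (Awat2, Far2 and Soat1) against 35.66% of all windows. The nuclear receptor hexamer, the sterol response element and the core promoter motif were in none of the 8, against 16.26%, 1.242% and 13.62% of all windows. These 3 promoters thus held none of the searched motifs in common.

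The question asked of the data was whether the lipid programme of the sebaceous gland differed between TSK and WT skin. None of the 9 genes passed the test. By edgeR's quasi-likelihood test with Benjamini-Hochberg adjustment, 0 of 9 had an adjusted p below 0.05, where 3.39% of all 19971 genes did, and 0 of 9 had an unadjusted p below 0.05, where 20.02% of all genes did. At the thresholds of the study (fold above 2.5 and adjusted p below 0.01), 0 of 9 were called, with 0.29% of all genes called. DESeq2 and limma also called 0 of 9, with 1 of 9 at an unadjusted p below 0.05 in limma on log2 CPM and 0 in DESeq2 and limma-voom. The CPM values of the groups overlapped for every one of the 9, whereas 31.6% of all genes tested had groups that did not overlap. The fitted log2 fold change (TSK minus WT) was above 0 for 7 of the 9, with a median of 0.20, beside 47.0% and a median of -0.03 over all genes tested. Adjusted p-values for the 9 ranged from 0.407 for Scd3 to 0.973 for Elovl3. These p-values measure the spread between mice. CPM values are scaled by library total alone, whereas the fold changes use TMM factors, which limit the weight of a few abundant genes. With library totals alone the median log2 fold change was 0.46 for the 9 and 0.25 for all genes tested.

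**Figure D1:**
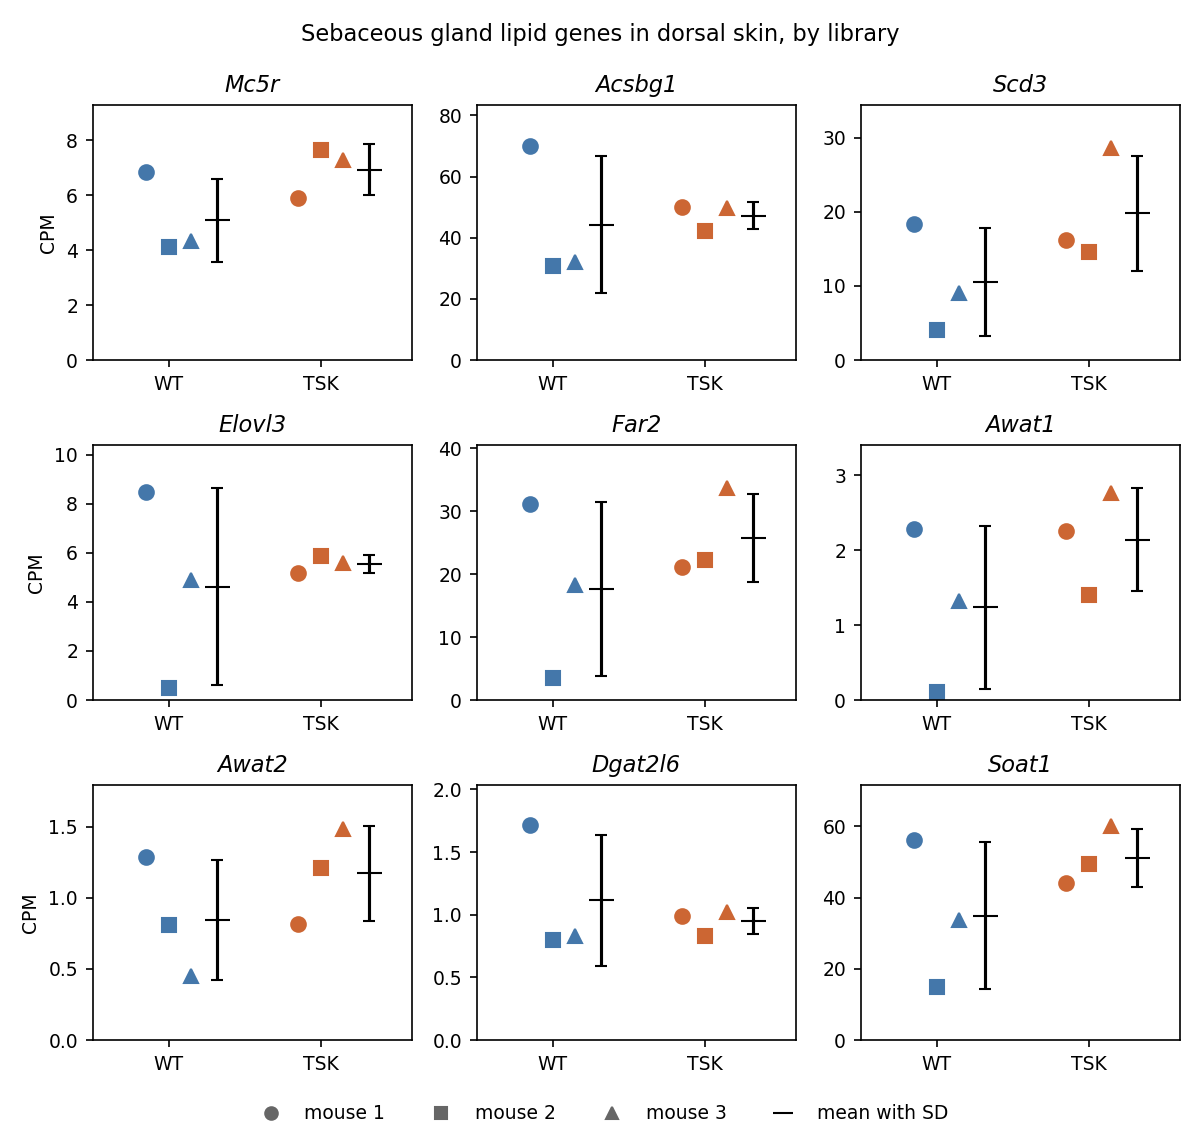
CPM (vertical axes, each starting at 0) of the 9 sebaceous gland lipid genes in the 3 WT (blue) and 3 TSK (orange) libraries. Symbols give the mouse number within its genotype (the numbers do not pair mice across genotypes), and the bars show the mean with the SD (n = 3). WT 2 is the lowest of the 6 libraries for every gene but Awat2, and the TSK points overlap the WT range for every gene.

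Mc5r and Acsbg1 act upstream of lipid assembly. Mc5r, the melanocortin receptor of sebocytes (chromosome 18, 68337596 to 68342446, plus strand), had 6.83, 4.10 and 4.33 CPM in the WT libraries 1 to 3 and 5.88, 7.65 and 7.26 CPM in the TSK libraries 1 to 3. WT 1 lay among the TSK libraries and the other WT libraries lay below them. Between genotypes the log2 fold change was 0.19 (SE 0.19, 95% interval -0.26 to 0.63, edgeR adjusted p = 0.650), a difference of 0.838 to 1.54 times.

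Acsbg1, an acyl-CoA synthetase that activates long and very long fatty acids (chromosome 9, 54604877 to 54661870, minus strand), stood at 70.2, 30.8 and 32.1 CPM in WT and at 49.99, 42.1 and 49.7 CPM in TSK. All TSK values fell between WT 1 and the other WT mice. TSK minus WT, the log2 fold change was -0.14 (SE 0.24, 95% interval -0.70 to 0.41, edgeR adjusted p = 0.797). Its sign rested on WT 1, without which it was 0.25, and it was also above 0 with scaling by library size alone (0.09).

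Scd3 and Elovl3 shape the fatty acid chain. Scd3, a stearoyl-CoA desaturase of the sebaceous gland that sets the first double bond (chromosome 19, 44203269 to 44244016, plus strand), stood at 18.4, 4.01 and 9.09 CPM in WT and at 16.2, 14.6 and 28.7 CPM in TSK. TSK 3 was the highest library and WT 2 the lowest, and WT 1 exceeded the other TSK mice. In the main fit Scd3 had the highest fold change of the 9, with means of 10.5 ± 7.28 CPM in WT and 19.8 ± 7.72 CPM in TSK (SD, n = 3). Awat1 exceeded Scd3 under some alternatives, among them limma-voom (1.14 against 0.81). The log2 fold change of Scd3 was 0.70 (SE 0.42, 95% interval -0.27 to 1.67, edgeR adjusted p = 0.407), so that differences from 0.829 to 3.17 times lie within the interval. Without WT 1 it was 1.27 with an adjusted p of 0.0935, the lowest adjusted p reached by any of the 9 under any alternative, and without WT 2 it was 0.35.

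The Scd3 transcript shares a stretch of 141 bases at 95.7% identity with that of Scd1, the main desaturase of fat and skin, and reads of 50 bases from there could be assigned to either gene. Scd1 stood at 337, 142 and 213 CPM in WT and at 774, 6275 and 468 CPM in TSK. TSK 2, the library highest in Scd1, was the lowest TSK library in Scd3. Scd3 also overlaps the antisense gene AC125101.1 on the opposite strand over 18221 bases, and whether the counting used strand is not given in the sources used here. The estimated counts of Scd3 remain uncertain to the extent that reads were shared.

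Elovl3, an elongase that makes very long saturated and monounsaturated chains (chromosome 19, 46131897 to 46135694, plus strand), stood at 8.49, 0.479 and 4.89 CPM in WT and at 5.17, 5.88 and 5.57 CPM in TSK. The TSK values were close together and WT 1 and WT 2 lay far on either side of them. The WT 2 value rested on 9 counts, and WT 1 was 17.7 times WT 2 with an exact counting interval of 9.08 to 39.5. The log2 fold change was 0.06 (SE 0.62, 95% interval -1.37 to 1.48, edgeR adjusted p = 0.973) and -0.45 without WT 2. It was 0.73 without WT 1, 0.67 with limma-voom and 0.95 with limma on log2(CPM + 0.1), not called in any of these. Elovl3 is also a gene of brown fat. The brown fat gene Ucp1 was at 79.9 CPM in TSK 2 and at or under 0.114 CPM in the other 5 libraries, while Elovl3 in TSK 2 (5.88 CPM) lay within 1 CPM of the other TSK libraries.

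Far2, Awat1, Awat2 and Dgat2l6 belong to the wax and neutral lipid branch. Far2, which reduces acyl-CoA to fatty alcohol (chromosome 6, 148047259 to 148182758, plus strand), stood at 31.2, 3.54 and 18.3 CPM in WT and at 21.2, 22.3 and 33.8 CPM in TSK. WT 2 lay far under all other libraries, at 67 counts against 333 to 637 elsewhere, and WT 1 and TSK 3 were the highest. Between genotypes the log2 fold change was 0.33 (SE 0.53, 95% interval -0.88 to 1.54, edgeR adjusted p = 0.782) and it was -0.13 without WT 2, 0.92 without WT 1 and 0.98 with limma on log2(CPM + 0.1), none of them called. Far2 overlaps Ergic2 on the opposite strand over 3680 bases, and Ergic2 had a mean of 31.6 CPM. The library kit kept strand, and the same limit on strand in the counting applies. Short stretches of at least 50 bases in the transcripts of Far2, Dgat2l6, Soat1 and Scd3 also match other transcripts at 95% identity or more, so part of their estimated counts may be shared.

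Awat1, an acyltransferase that joins fatty alcohols to acyl-CoA to give wax esters (chromosome X, 100572251 to 100578205, plus strand), stood at 2.28, 0.106 and 1.32 CPM in WT and at 2.25, 1.40 and 2.76 CPM in TSK. WT 2 held 2 counts of Awat1, where the other libraries held 24 to 52. The ratio of WT 1 to WT 2 was 21.4, with an exact counting interval of 5.55 to 183. The log2 fold change between genotypes was 0.57 (SE 0.64, 95% interval -0.88 to 2.03, edgeR adjusted p = 0.673). It was 0.06 without WT 2, 1.27 without WT 1, 1.14 with limma-voom and 1.29 with limma on log2(CPM + 0.1), and it was not called in any of these.

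Awat2, which makes wax esters and also esters of retinol (chromosome X, 100402221 to 100442717, minus strand), stood at 1.29, 0.807 and 0.448 CPM in WT and at 0.820, 1.21 and 1.49 CPM in TSK. It was the exception among the 9 in that WT 3, not WT 2, was the lowest library. With 8 to 28 counts per library, the exact counting intervals of WT 3 (0.190 to 0.867 CPM) and TSK 1 (0.462 to 1.36 CPM) overlapped. TSK minus WT, the log2 fold change was 0.20 (SE 0.40, 95% interval -0.71 to 1.11, edgeR adjusted p = 0.830) and -0.08 without WT 3.

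Dgat2l6, a further acyltransferase of the same family (chromosome X, 100524838 to 100546144, plus strand), stood at 1.71, 0.799 and 0.828 CPM in WT and at 0.992, 0.832 and 1.02 CPM in TSK. WT 1 was the highest library and the other 5 lay close together, at 15 to 19 counts each. The log2 fold change was -0.48 (SE 0.34, 95% interval -1.25 to 0.29, edgeR adjusted p = 0.476), the lowest of the 9. Awat2, Dgat2l6 and Awat1 lie in that order in 1 stretch of chromosome X. The fall from WT 1 to WT 2 was 21.4 times for Awat1 and 2.14 times for Dgat2l6 (exact counting interval 1.116 to 4.28), so the interval of Awat1 lay above that of its neighbour.

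Soat1, which joins cholesterol to a fatty acid for storage and for sterol esters of sebum (chromosome 1, 156424525 to 156474331, minus strand), stood at 56.1, 14.9 and 33.7 CPM in WT and at 44.0, 49.5 and 60.0 CPM in TSK. WT 1 lay within the TSK range and WT 2 and WT 3 below it. Between genotypes the log2 fold change was 0.32 (SE 0.33, 95% interval -0.43 to 1.08, edgeR adjusted p = 0.640). Without WT 1 it was 0.75 and without WT 2 it was 0.00.

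**Figure D2:**
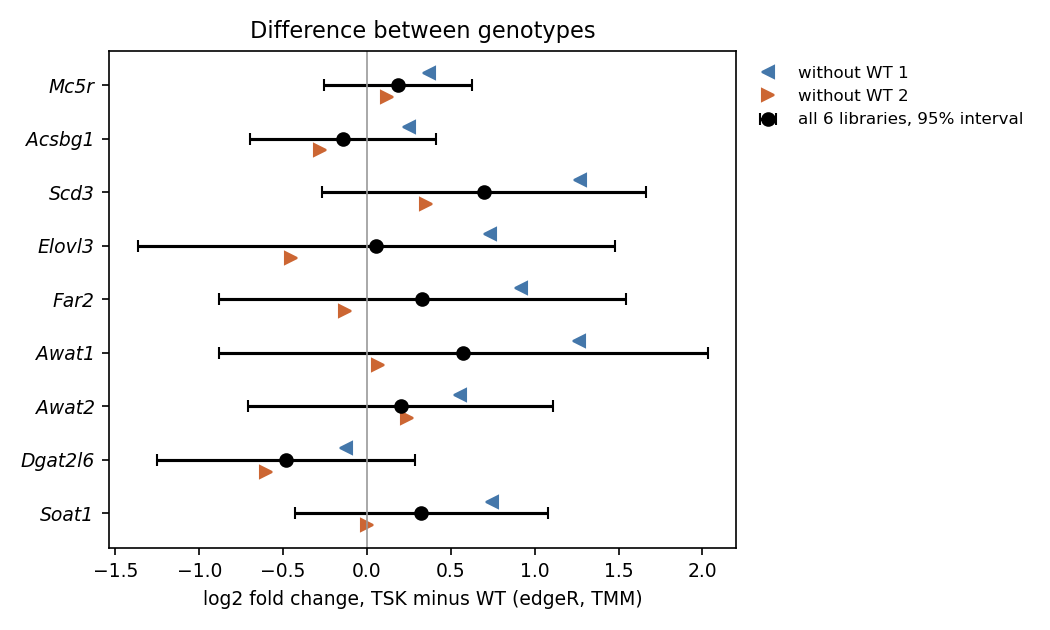
Log2 fold change (horizontal axis, TSK minus WT, edgeR with TMM scaling) of the 9 genes, with its 95% interval from all 6 libraries (black) and the value without WT 1 (blue) or without WT 2 (orange). Every interval spans 0, and for every gene but Awat2 and Mc5r the value moved by over 0.1 toward higher TSK without WT 1 and toward higher WT without WT 2.

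The 9 genes spread more widely among WT than among TSK mice, and much of that spread came with WT 2. On CPM scaled by library total alone, WT 2 was the lowest of all 6 libraries for 8 of the 9 genes. On that scale 8 of 9 stood in the order WT 1, WT 3, WT 2 from high to low. Over all genes tested these shares were 45.9% and 43.5%. WT 2 had the smallest TMM factor (0.823, with 0.886 for WT 3 and 1.063 to 1.129 for TSK). Scaled by these factors, WT 3 lies below WT 2 for Mc5r (4.10 CPM in WT 2, 4.33 in WT 3) and Acsbg1 (30.8, 32.1). Fewer of the 9 thus keep these places with TMM scaling. By CPM, other lipid genes also had WT 2 as their lowest library, namely 41 of the 52 further lipid genes tested. Among them were 12 of 12 of desaturation and elongation and 9 of 10 of cholesterol synthesis. The counts were lower for fatty acid synthesis (4 of 6) and for neutral lipid esterification and droplets (4 of 8). WT 2 was also the lowest library for 11 of 12 sebaceous markers, so the pattern was not particular to the 9. The distance from the highest to the lowest WT mouse, on log2 CPM with TMM scaling, had a median of 1.59 over the 9 and of 0.44 over all genes tested. Among TSK mice the same distance was 0.36 over the 9 and 0.43 over all genes. It was wider in WT than in TSK for 9 of 9 genes and for 51.6% of all genes. It reached 3.60 for Elovl3, 3.30 for Awat1 and 2.78 for Far2 in WT, where the TSK values of these genes were 0.11, 0.90 and 0.58. Without WT 2 the distance between the other WT mice had a median of 0.58 over the 9 and of 0.28 over all genes, and it was 0.58 for Elovl3, 0.55 for Awat1 and 0.56 for Far2. It then exceeded the TSK distance for 6 of the 9. Without WT 1 the median over the 9 was 1.06, and without WT 3 it was 1.59. These comparisons were chosen after the values had been seen and were not tested.

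**Figure D3:**
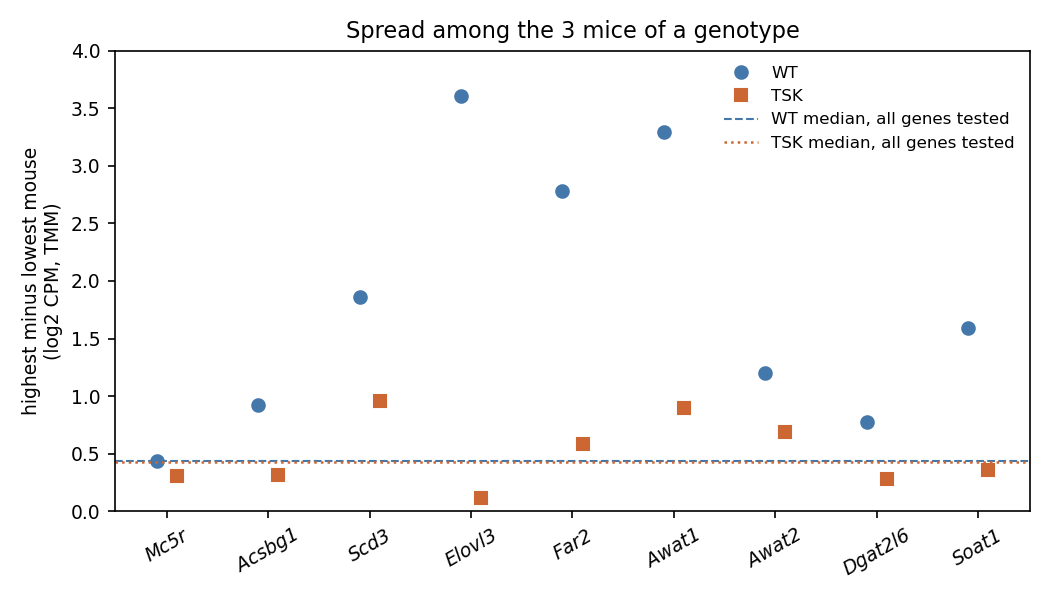
Difference between the highest and the lowest mouse of a genotype on log2 CPM (TMM) for each of the 9 genes, in WT (blue circles) and TSK (orange squares), with the median of all 19971 genes tested as lines. The WT value exceeds the TSK value for all 9 genes, and it is greatest for Elovl3 (3.60) and Awat1 (3.30).

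The 9 genes together came to 196, 59.5 and 105 CPM in the WT libraries and to 147, 145 and 190 CPM in the TSK libraries, in the order of their numbers. The TSK sums thus fell within the WT range. Set against the summed level of 7 basal keratinocyte genes, the sum of the 9 was 24.7, 14.5 and 22.1 per 1000 in WT and 23.2, 36.5 and 47.5 per 1000 in TSK. WT 2 remained the lowest on that scale. Against 10 genes of differentiated keratinocytes it was 90.4, 44.2 and 60.9 per 1000 in WT and 38.9, 52.3 and 86.4 per 1000 in TSK, where TSK 1 was the lowest.

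Per length of transcript, Acsbg1 was the most abundant of the 9, at 12.3 ± 6.21 CPM per kb of exon in WT and 13.1 ± 1.24 in TSK (SD, n = 3). In TSK it was followed by Scd3 (5.58 ± 2.17 CPM per kb) and Soat1 (5.23 ± 0.828), which did not differ beyond their spread. Far2 (3.52 ± 0.949) came next and lay within the spread (a gap smaller than the summed SDs) of both Soat1 and Elovl3 (2.80 ± 0.180). Mc5r (1.78 ± 0.237) and Awat1 (1.54 ± 0.492) lay below Elovl3 and within their spread of each other. Awat2 (0.551 ± 0.158) and Dgat2l6 (0.200 ± 0.0215) were the lowest and lay apart from each other and from Awat1. In WT the means kept nearly the same order, with Soat1 (3.56 ± 2.11) above Scd3 (2.95 ± 2.05), but from Soat1 down to Dgat2l6 all neighbours lay within their spread. Scd1 had 47.1 CPM per kb in WT, above each of the 9.

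The 9 genes varied together across libraries to unequal degrees. WT 2 lay furthest out, with a mean centred log2 CPM of the 9 of -1.12, against -0.10 to 0.60 in the other libraries. The share over pairs of other genes was not computed. All 36 pairs had a Pearson correlation of log2 CPM above 0 over the 6 libraries (0.03 to 0.99, median 0.53), and 11 were above 0.8. These libraries share their composition and scaling, so the values are a description. Soat1 followed the mean of the other 8 most closely (r = 0.989), then Far2 (0.967), Awat1 (0.931), Scd3 (0.929) and Elovl3 (0.902). Mc5r (0.687) and Acsbg1 (0.605) followed it less closely, and Dgat2l6 (0.278) and Awat2 (0.235), which had the fewest counts, least.

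Among 17598 other genes, those most like the mean pattern of the 9 over the 6 libraries were Arhgdib and Sh3bgrl3 (both r = 0.996), Sap130 (0.994), Slc39a11 (0.993), Zxda (0.9901), Nek2 (0.989), and Acoxl and Paqr7 (both 0.988). None of these 8 was called between genotypes. Arhgdib stood at 28.4, 9.90 and 17.2 CPM in WT and at 24.1, 22.8 and 29.3 CPM in TSK. Acoxl, a relative of peroxisomal acyl-CoA oxidases, stood at 5.70, 0.213 and 1.37 CPM in WT and at 3.90, 3.07 and 5.25 CPM in TSK. Of the listed lipid genes, Fa2h, the fatty acid 2-hydroxylase, was named after its values had been seen, with r = 0.979. It stood at 46.3, 3.25 and 24.0 CPM in WT and at 30.5, 32.1 and 46.3 CPM in TSK, the same course as Far2.

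Of 53 other genes of lipid synthesis and its hormonal control, 52 were tested. By edgeR, 4 rose in TSK, 0 fell and 48 did not pass (all genes tested, 3.39% called), and the median log2 fold change was 0.45, beside -0.03 for all genes tested. The 4 that rose all belong to the 12 genes of desaturation and elongation. Fads1, the delta-5 desaturase, rose from 7.06, 6.18 and 6.98 CPM in WT to 15.2, 22.94 and 22.95 CPM in TSK (log2 fold change 1.31 with SE 0.18, edgeR adjusted p = 0.0114). Fads2, the delta-6 desaturase, rose from 3.74, 3.14 and 4.01 CPM to 7.96, 10.2 and 10.4 CPM (1.11, SE 0.18, edgeR adjusted p = 0.0187). Scd2, a paralog of Scd3, rose from 63.1, 49.5 and 59.3 CPM to 108, 146 and 129 CPM (0.88, SE 0.14, edgeR adjusted p = 0.0171). Elovl1, a paralog of Elovl3, rose from 37.9, 23.9 and 34.3 CPM to 84.1, 62.0 and 60.4 CPM (0.85, SE 0.19, edgeR adjusted p = 0.0479). The groups did not overlap for any of these 4 (31.6% of all genes tested). This adds little, as the 4 were picked by the test on the same libraries. Without WT 3 none of the 52 was called and without WT 2 only Fads1 was, and Elovl1 lost its call whichever library was left out.

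The other lists held no call. The 6 genes of fatty acid synthesis had a median log2 fold change of 1.56, the 8 of neutral lipid esterification and droplets 0.65, the 7 of fatty acid activation and transport 0.44, the 10 of cholesterol synthesis 0.30, the 5 tested of melanocortin and androgen signalling 0.20 and the 4 of wax, ether and hydroxy lipids 0.04. Several of these medians rested on TSK 2, the library where the adipocyte genes also peaked. The fatty acid synthesis genes summed to 367 to 484 CPM in WT and to 750, 5323 and 599 CPM in TSK 1 to 3, and without TSK 2 their median was 0.45. Without TSK 2 the neutral lipid list came to 0.01, fatty acid activation and transport to 0.31, cholesterol synthesis to 0.34, melanocortin and androgen signalling to 0.29 and the wax list to -0.02. The wax, ether and hydroxy lipid genes, the list nearest in function to Far2 and Awat1, thus had the lowest median.

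Of 19 paralogs of the 9 genes, 11 were tested and 2 rose (Scd2 and Elovl1), where 3.39% of all genes were called. Their median log2 fold change was 0.59, beside -0.03 for all genes tested. The number called was 0 without WT 2 or WT 3 and 1 without TSK 1. Scd1 did not pass (log2 fold change 3.19, SE 0.90, edgeR adjusted p = 0.0946) and its TSK values spread from 468 to 6275 CPM. Without TSK 2 its log2 fold change was 1.21, and it was not called either. Dgat2, the main enzyme of triglyceride synthesis and a relative of Awat1, stood at 26.2, 27.3 and 27.9 CPM in WT and at 89.6, 352 and 60.2 CPM in TSK (2.33, SE 0.59, edgeR adjusted p = 0.0698). It passed without TSK 2 (1.19, edgeR adjusted p = 0.0376) and without TSK 3 (2.74, edgeR adjusted p = 0.0431). Dgat2 also passed with DESeq2 (adjusted p = 0.0332), with limma on log2 CPM at either pseudocount (adjusted p = 0.0258 and 0.0263), with library size alone (edgeR adjusted p = 0.0205) and with no low-count filter (edgeR adjusted p = 0.00534). Scd1 passed with library size alone (edgeR adjusted p = 0.0384) and with no low-count filter (edgeR adjusted p = 0.0104). Elovl4, Elovl5 and Elovl6 had log2 fold changes of 0.59, 0.57 and 0.65, and Far1, Elovl7, Mc1r and Soat2 of 0.14, -0.03, -0.13 and -0.17, none of them called. Without WT 1, Elovl5 was called (0.97, edgeR adjusted p = 0.0463) and Elovl6 came to 1.41. Without WT 2, Elovl4, Elovl5 and Elovl6 fell to 0.19, 0.31 and 0.19. The signs of Elovl7, Mc1r and Soat2 turned with scaling by library size alone.

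The tissue was checked with 12 sebaceous marker genes, all of which were tested and none of which was at 0 in every library. By edgeR 1 rose (3.39% called over all genes) and 11 did not pass, with a median log2 fold change of 0.78. The groups did not overlap for 9 of the 12 (31.6% of all genes), unlike any of the 9 lipid genes. The summed level of the 12 was 423 to 875 CPM in WT and 1126 to 10479 CPM in TSK, the highest in TSK 2, and the list shares Scd1, Fasn, Pparg and Plin2 with fat cells. Without TSK 2 the median was 0.72. Prdm1, a transcription factor reported in sebocytes and also in differentiating keratinocytes, rose from 6.35, 4.11 and 4.75 CPM to 20.2, 15.9 and 16.04 CPM (log2 fold change 1.52 with SE 0.18, edgeR adjusted p = 0.00847). Without WT 3 its adjusted p was 0.0561. Krt79, a keratin of the sebaceous duct, stood at 90.3, 19.0 and 70.0 CPM in WT and at 121, 98.6 and 102 CPM in TSK (0.62, SE 0.41, edgeR adjusted p = 0.447), again with WT 2 the lowest. Mgst1 (1.41, edgeR adjusted p = 0.0913) and Pparg (1.81, edgeR adjusted p = 0.112) had their highest values in TSK 2, at 81.6 and 33.2 CPM. Without TSK 2 they were at 0.76 and 0.78 and not called (edgeR adjusted p = 0.122 and 0.124). With all 6 libraries DESeq2 called both (adjusted p = 0.0046 and 0.0055). Both were also called by edgeR with library size alone and with no low-count filter, and Mgst1 by limma on log2 CPM. Plin2, a lipid droplet coat protein, had a fitted log2 fold change of 0.13 and was not called.

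**Figure D4:**
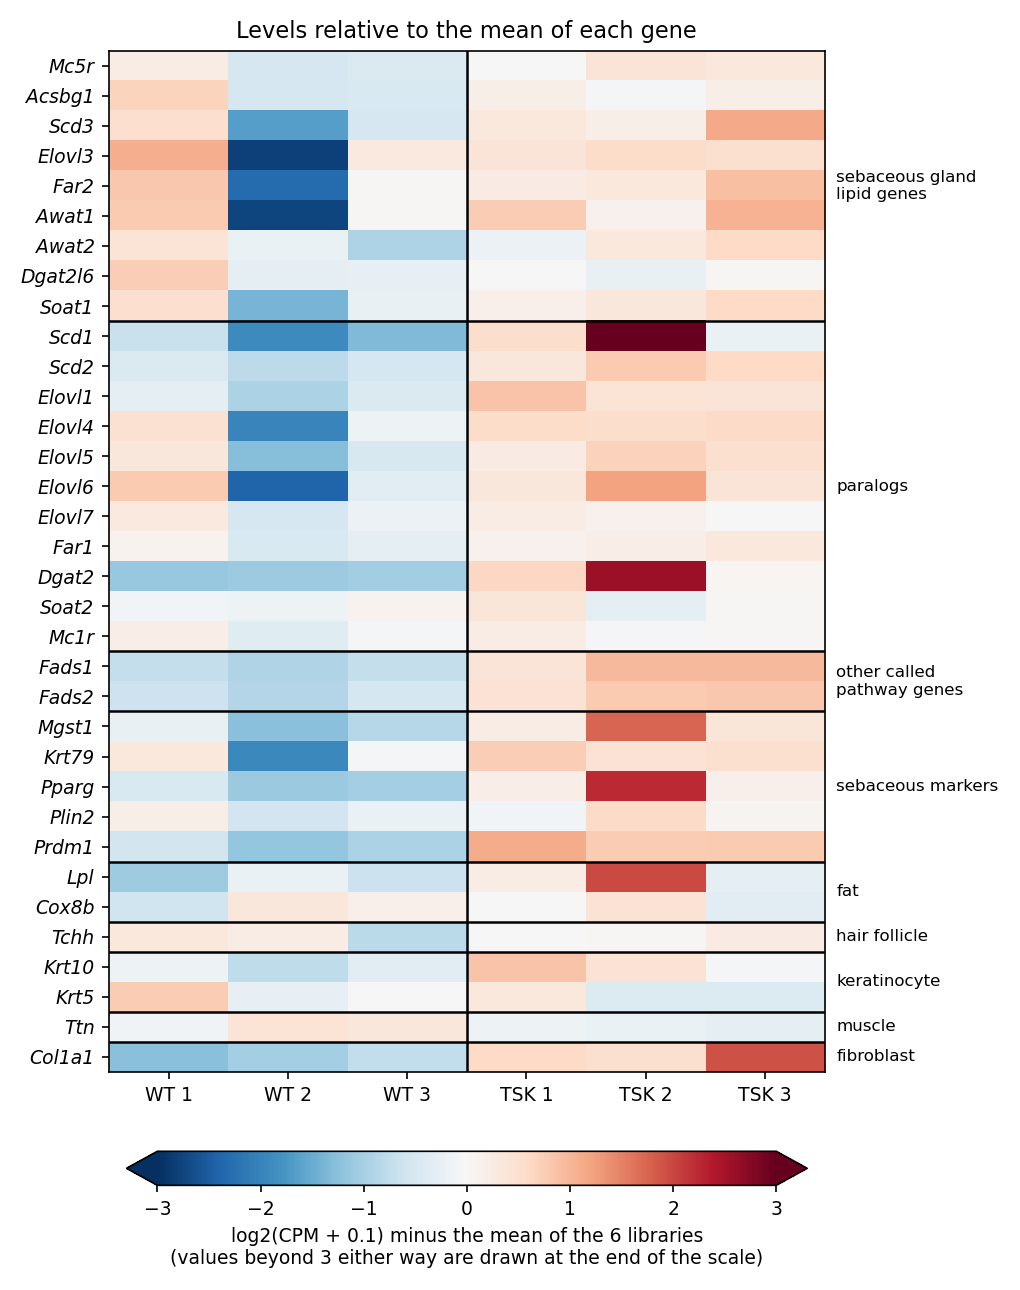
Level of each gene relative to its own mean over the 6 libraries, as log2(CPM + 0.1), for the 9 genes, their tested paralogs, further called lipid genes, sebaceous markers and the most abundant marker of other cell types. Blue is below and red above the mean, on a scale that ends at 3 either way. The 9 genes are lowest in WT 2 (Awat2 in WT 3) and mostly near their mean or above it in TSK, while Scd1, Dgat2, Pparg and Lpl peak in TSK 2.

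Markers of other tissue moved with the libraries. Over 12 skeletal muscle genes the sum was 153367, 223292 and 211880 CPM in the WT libraries, by number, and 132637 to 152441 CPM in TSK, with 0 of 12 called, a median log2 fold change of -0.76 and none at 0. Muscle was thus highest in WT 2, where the lipid genes were lowest, and lowest among WT mice in WT 1, where they were highest. When the 12 muscle markers and ribosomal RNA were taken out, the median of the 9 stayed at 0.20 and 0 were called. Other muscle genes stayed in, and TMM already limits the weight of abundant genes, so this fit does not address muscle content. Over 7 basal keratinocyte genes the sums were 7942, 4103 and 4747 CPM in WT and 3990 to 6322 CPM in TSK, with 0 of 7 called. Over 10 genes of differentiated keratinocytes they were 1348 to 2173 CPM in WT and 2201 to 3768 CPM in TSK, with 2 of 10 called higher (3.39% of all genes were called in either direction). Over 14 hair follicle genes they were 38.4 to 80.2 CPM in WT and 89.6 to 97.4 CPM in TSK, with 3 of the 11 tested called higher.

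Over 12 adipocyte genes the sums were 737 to 1013 CPM in WT and 1294 to 5892 CPM in TSK, the highest in TSK 2, with 3 of 12 called higher, again beside 3.39% of all genes. Over 9 fibroblast genes they were 6382 to 9693 CPM in WT and 20492 to 47549 CPM in TSK, with 1 of 9 called higher. Over 6 brown fat genes they were 114 to 206 CPM in WT and 121 to 344 CPM in TSK, with 0 of the 5 tested called. No gene of these lists was at 0 in every library. The part of muscle, keratinocyte, hair follicle, fat and fibroblast RNA in the values of the 9 genes, and in those of the lipid genes and markers that rose, was not tested.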

How the data were processed

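Bulk RNA-seq of dorsal skin from 3 WT and 3 TSK mice was analysed. The authors made stranded libraries after depletion of ribosomal RNA, sequenced reads of 50 bases, demultiplexed them with bcl2fastq 2.19.1.403, aligned them with STAR to mm10 and quantified genes in Partek Flow 11.0. The estimated counts per gene deposited by the authors were not all whole (43.3% to 45.4% of non-zero values of a library lay within 0.001 of a whole number) and were rounded. The test had been planned for raw counts. CPM values were used as deposited, with genes of no count shown as 0. Intervals on counts cover counting error only.

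Genotypes were compared with edgeR 4.0.16 (R 4.3.3, quasi-likelihood test, TMM, filterByExpr), adjusted over 19971 genes by the Benjamini-Hochberg method. The SE is the log2 fold change divided by the root of F. DESeq2 1.42.0, limma 3.58.1, other scalings, filters and pseudocounts, a block on replicate number and the omission of each library in turn were alternatives. The test was tried on simulated data. Coordinates and exon lengths are from GENCODE M21 (GRCm38), and transcripts were compared with BLAST 2.17.0 (at least 95% identity over 50 bases).

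The genes, lists and rules were chosen with earlier results of these data known. Named were the 9 genes, Fbn1, tested paralogs, called lipid genes, 6 sebaceous markers (1 of them not reported here), the most abundant gene of each other list and the 8 most alike genes with a mean of at least 1 CPM. Same-numbered WT and TSK libraries had deviations correlated at 0.01, 0.17 and -0.09, so the numbers do not pair mice. Libraries of a group differed beyond sampling noise (chi-square per degree of freedom at least 8.85). Single-cell data were not analysed here.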

Additional observations from a re-analysis of the deposited data

How the results depend on the processing

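None of the 9 genes was called under any alternative run, and the lowest adjusted p was 0.0935 (Scd3 without WT 1). Their median log2 fold change was 0.20, and over the leave-one-out fits it lay between 0.00 (without WT 2) and 0.73 (without WT 1). With the replicate block it was 0.38 and 0 of the 9 were called, and the block left 4 lipid genes and 2 paralogs called. Scaling by library size alone moved the median of all genes to 0.25 and that of the 9 to 0.46. The median of the 9 was 0.45 with limma-voom, and 0.58 and 0.74 with limma at pseudocounts of 1 and 0.1, where that of all genes was 0.20 and 0.25. A filter at 1 CPM dropped Dgat2l6.

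Of 152 values for the 9 genes, 145 kept their sign and side of the threshold and 7 turned sign. With library size alone, limma on log2(CPM + 1) and limma on log2(CPM + 0.1), Acsbg1 came to 0.093, 0.19 and 0.20, Elovl7 to 0.22, 0.24 and 0.25, Soat2 to 0.10, 0.051 and 0.068, Mc1r to 0.13, 0.095 and 0.14, Cox8b to 0.057, 0.070 and 0.071, and Tchh to 0.12, 0.19 and 0.19. Leaving out a library turned the sign of genes whose values then ran from -0.084 to 0.56 (Awat2), -0.13 to 0.92 (Far2), -0.30 to 0.25 (Acsbg1), -0.45 to 0.73 (Elovl3), -0.13 to 0.12 (Elovl7), -0.085 to 0.25 (Plin2), -0.52 to 0.023 (Cox8b), -0.42 to 0.071 (Tchh), -0.026 to 0.58 (Arhgdib), -0.0069 to 0.18 (Sap130), -0.011 to 0.28 (Zxda) and -0.18 to 0.67 (Nek2). The cause was not tested.

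The 4 lipid genes called became 0 at the thresholds of the study, 12 with library size alone, 9 with DESeq2, 11 and 10 with limma at pseudocounts of 1 and 0.1, 12 with no low-count filter, and 0 to 5 without a library. The 2 paralogs called became 0 at those thresholds, 4 with library size alone, 1 with DESeq2 size factors, 1 with upper quartile scaling, 1 with limma-voom, 5 with no filter, and 0 to 2 without a library. Over all genes, 678 were called by edgeR, 1547 by DESeq2, 545 by limma-voom, 1871 and 1860 by limma at those pseudocounts, 1778 with library size alone, 1387 with no filter and 60 without WT 3.

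With 3 mice per genotype and the spread seen in WT, the 95% intervals reach 4.09 times for Awat1, 3.17 for Scd3, 2.92 for Far2 and 2.79 for Elovl3. Their lower ends were 0.542 times for Awat1, 0.829 for Scd3, 0.542 for Far2 and 0.388 for Elovl3. Differences inside these intervals are not excluded by the data.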
